A study of Mus musculus with 6 samples.

Results

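The collagen genes are the rows of the mouse single-cell matrices whose gene symbol is Col, a number, the letter a and a number. This rule found 44 of 31053 genes, and all 44 had a position in the mouse gene annotation (GENCODE M21) and at least 1 read molecule in the libraries together. By type, 11 are fibrillar, 6 belong to basement membrane type IV, 6 to beaded filament type VI, 1 is the anchoring fibril chain, 3 are short chain network collagens, 9 are fibril associated, 4 are transmembrane, 2 are multiplexins and 2 are placed in none of these groups.

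Collagens are extracellular matrix proteins of 3 chains wound into a triple helix. Fibrillar collagens I, III and V form the fibrils of connective tissue and are made mainly by fibroblasts, type IV forms the sheet of basement membranes, and multiplexins XV and XVIII sit where basement membranes meet the surrounding matrix. Melanoma cells can also make collagens.

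The cells were measured with droplet single-cell RNA sequencing (10x Genomics, 3' tags), in which each captured RNA molecule carries a unique molecular identifier (UMI) and is counted once. The source is labelled YUMM2.1, a mouse melanoma line which the study describes as derived from a transgenic tumour whose alleles include Braf V600E and a stabilized beta-catenin. Empty vector was compared with Bmal1 WT, that is, with ectopic wild-type Bmal1, the clock transcription factor whose symbol in the files is Arntl. The labels do not say whether the endogenous gene was intact, where the immune cells in the libraries came from, nor any age, sex or time of collection. Each library held 3 replicates marked by hashtag antibodies (h1, h7 and h8 in Empty vector, h3, h5 and h9 in Bmal1 WT). The replicates of a group shared 1 droplet run, so vector and run cannot be told apart, and nothing states that hashtags were separate cultures or animals.

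The Empty vector library kept 3978 cells with a median of 5094 UMIs, and the Bmal1 WT library kept 2386 cells with a median of 7571. Only 5 cell barcodes were shared by the 2 lists. In both libraries most cells carried immune markers, although the label names a cell line. The collagen genes were left out of the clustering, so that cell classes were named without them. The fibroblast-like class had 143 Empty vector and 208 Bmal1 WT cells in 2 clusters, which raised 12 and 9 of the 12 fibroblast markers. The melanoma-like class had 109 and 326 cells and raised 6 of 12 melanoma markers, among them Sox10, Erbb3 and S100b, while the pigment cell genes Mlana and Tyrp1 were at 0 UMIs in both libraries. No endothelial-like or pericyte-like cluster was found. Levels below are counts of a gene's UMIs for every 1000000 UMIs of the same cells (CPM). Intervals are 95% exact Poisson or Clopper-Pearson intervals and cover counting error only. Since 3' tags do not scale with transcript length and capture differs between genes, levels of different genes are not ranked, and a ratio of genes is compared only between classes. The 12 fibroblast markers summed to 11917 and 10781 CPM (Empty vector, Bmal1 WT) in fibroblast-like and 390 and 438 in melanoma-like cells. In melanoma-like cells Serpinf1 gave 260 and 303 of this. The 12 melanoma markers summed to 312 and 372 in fibroblast-like and 1694 and 1174 in melanoma-like cells.

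Collagen RNA came from fibroblast-like and melanoma-like cells in both libraries. The fibroblast-like cells held 7.11% of all UMIs in Empty vector but 72.4% (interval 72.1 to 72.7) of the collagen UMIs. In Bmal1 WT they held 10.4% of all UMIs and 55.7% (55.5 to 56.0) of the collagen UMIs. Melanoma-like cells gave 25.6% of the collagen UMIs in Empty vector and 42.4% in Bmal1 WT, where they also made up 45.2% of all UMIs against 17.1%. All immune-like classes together gave 0.911% and 0.449%. The summed collagen level was 24440 and 20930 CPM in fibroblast-like cells, 3577 and 3665 in melanoma-like cells, and 32.0 and 48.98 in immune-like cells, in Empty vector and Bmal1 WT respectively. By hashtag replicate, fibroblast-like cells were at 20100, 25519 and 18580 (h1, h7 and h8) against 17001, 26309 and 23122 (h3, h5 and h9). Melanoma-like cells were at 3178, 1235 and 3398 against 2446, 3953 and 2860. The groups overlapped in both classes. Fibroblast-like cells with 1 hashtag were at 21033 and 21516, and those with no hashtag at 26217 and 20890. The makeup differed between the sources as well, since fibrillar chains gave 66.4% and 66.3% of the collagen UMIs in fibroblast-like cells and 27.8% and 28.4% in melanoma-like cells.

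A gene was called highest in a class where its level was at least 2 times that of each of the 5 other classes with 200 or more cells, in each library, with at least 20 UMIs in the class. By this rule, which is a description and not a test, 18 genes were highest in fibroblast-like cells, 5 in melanoma-like cells and 1 in dendritic-cell-like cells. The other 20 had no source class, 16 of all 44 genes having fewer than 100 UMIs in the libraries together. The map of levels by class shows the fibroblast-like, melanoma-like and immune-like patterns side by side.

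**Figure D1:**
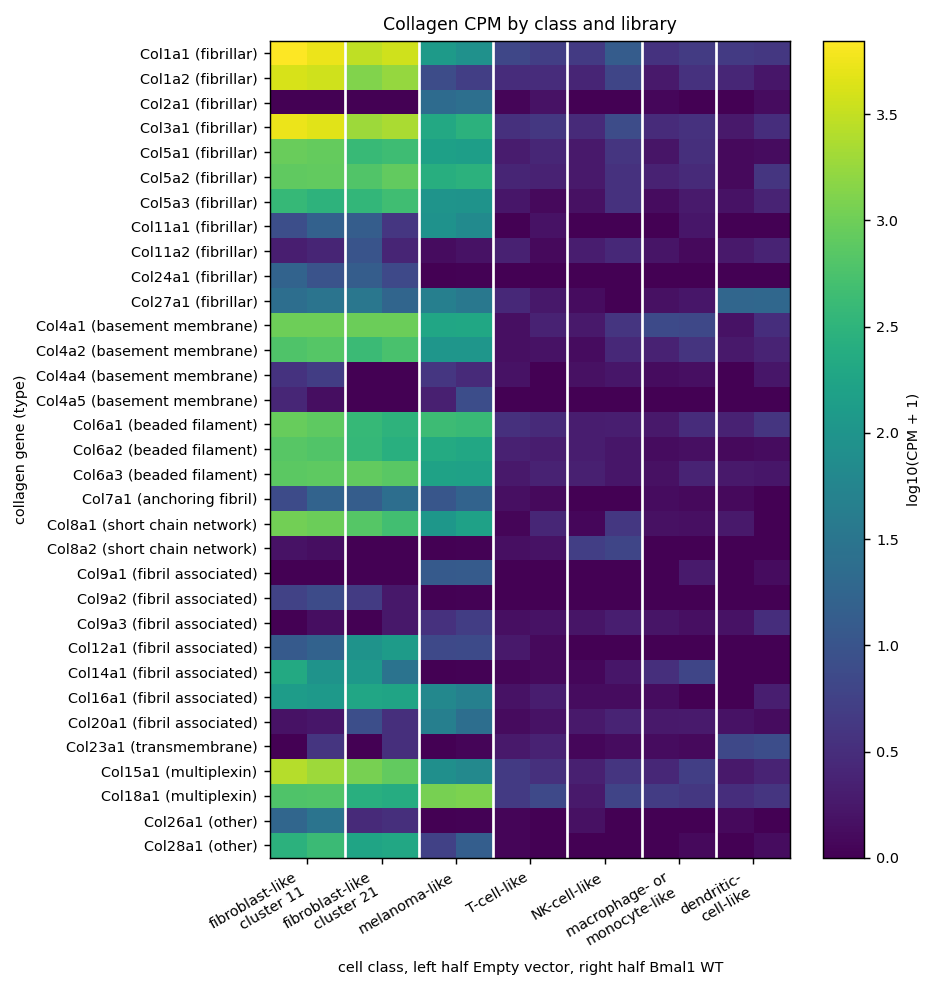
Level in CPM (colour, log10 of CPM plus 1) of each collagen gene that reached 4 CPM in a column, by cell class (columns, Empty vector on the left and Bmal1 WT on the right of each pair). Col1a2 is high in both fibroblast-like clusters and near the immune level in melanoma-like cells, while Col18a1, Col11a1 and Col20a1 are highest in melanoma-like cells.

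The major fibrillar chains divided the sources. Col1a1, on chromosome 11 (94936224 to 94953042, plus strand, mm10), encodes the alpha 1 chain of type I collagen and was at 6095 and 4924 CPM in fibroblast-like cells against 124 and 88.2 in melanoma-like cells, in Empty vector and Bmal1 WT. Col1a2, on chromosome 6 (4504814 to 4541544, plus strand), encodes its partner chain and was at 3476 and 3073 in fibroblast-like cells but only 6.88 and 4.25 in melanoma-like cells. Col3a1, the single chain of type III, on chromosome 1 (45311538 to 45349706, plus strand), was at 4669 and 3925 in fibroblast-like and 206 and 290 in melanoma-like cells. So melanoma-like cells carried Col3a1 nearly without Col1a2. In fibroblast-like cells 295 of the 316 cells with a Col3a1 UMI also had a Col1a2 UMI, and there were 1.30 Col3a1 UMIs for each Col1a2 UMI. In melanoma-like cells it was 25 of 301 cells and 54.8 UMIs.

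The type V chains, which nucleate and limit fibrils, were shared more evenly. Col5a1 was at 807 and 733 CPM in fibroblast-like and 152 and 142 in melanoma-like cells. Col5a2 was at 756 and 833 against 255 and 296, and Col5a3 at 366 and 351 against 95.6 and 93.3. Col11a1 and Col2a1, the fibrillar chains best known from cartilage, went the other way. Col11a1 was at 8.71 and 10.97 in fibroblast-like but 90.1 and 67.2 in melanoma-like cells, and Col2a1 was at 20.99 and 24.6 in melanoma-like cells with no UMI in fibroblast-like cells, where 3 UMIs would have been 1.24 and 0.748 CPM. Col24a1, a minor fibrillar chain, was low in fibroblast-like cells, at 14.9 and 7.73 CPM.

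The main basement membrane chains, Col4a1 and Col4a2, were higher in fibroblast-like than in melanoma-like cells. Col4a1 was at 987 and 984 CPM in fibroblast-like cells and 188 and 197 in melanoma-like cells, and Col4a2 at 559 and 633 against 102 and 103. The genes lie head to head on chromosome 8 (Col4a1 from 11198423 to 11312826 on the minus strand, Col4a2 from 11312805 to 11449287 on the plus strand, mm10), so that the first 22 transcribed bases of each, on opposite strands, are the same stretch of DNA. It is shown because these chains assemble with each other and their genes start on the same stretch. On the plus strand it reads, from RefSeq (GRCm38.p6, chr8:11312805-11312826):

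Col4a1 and Col4a2 shared start: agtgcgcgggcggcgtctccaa

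Endothelial cells and pericytes also make these chains, and no cluster of either was found. Of the 9 endothelial markers 2 were at 0 UMIs in fibroblast-like cells of each library, and the 9 summed to 29.5 and 38.2 CPM. Of the 8 pericyte markers 3 were at 0, and the 8 summed to 375 and 432 CPM, of which Mcam gave 222 and 246. In melanoma-like cells the endothelial markers summed to 85.3 and 102 CPM, with Flt1 at 61.8 and 78.5, and the pericyte markers to 672 and 492, with Mcam at 434 and 292. Mcam is also on the list of melanoma markers, so it does not mark pericytes alone. The part of endothelial cells and pericytes in the type IV levels was not tested. The other type IV chains were low, with Col4a4 at 3.10 and 1.90 and Col4a5 at 1.20 and 7.12 in melanoma-like cells, against 2.07 and 2.74 and 1.24 and 0.249 in fibroblast-like cells.

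Type VI chains, which form beaded filaments around cells, were made by both sources. Col6a1 was at 785 and 618 CPM in fibroblast-like and 428 and 405 in melanoma-like cells, too close for a source to be called. Col6a2 was at 617 and 507 against 226 and 200, and Col6a3 at 780 and 767 against 162 and 158. Col6a4, Col6a5 and Col6a6 had 31, 2 and 3 UMIs in all.

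Among the remaining types, the fibroblast-like cells had most of Col8a1, a short chain network collagen known from vessel walls and the cornea, at 980 and 793 CPM against 109 and 159 in melanoma-like cells. Fibril associated Col14a1 was at 194 and 72.3 in fibroblast-like cells and had 1 UMI in all 435 melanoma-like cells. Col12a1 was at 30.3 and 51.4 in fibroblast-like cells and 6.02 and 6.43 in melanoma-like cells, and Col16a1 at 144 and 139 against 61.1 and 46.2. Col28a1 was at 265 and 344 against 4.47 and 13.3, and Col26a1 at 14.1 and 20.2 in fibroblast-like cells. The fibril associated Col9a1, at 11.2 and 11.9 CPM, and Col20a1, at 44.7 and 23.7, were instead melanoma-like, Col9a1 having no UMI in fibroblast-like cells.

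The multiplexins split between the sources. Col15a1, on chromosome 4 (47208161 to 47313167, plus strand), was at 2310 and 1574 CPM in fibroblast-like cells and 80.3 and 63.3 in melanoma-like cells. Col18a1, on chromosome 10 (77052178 to 77166548, minus strand), whose C-terminal fragment is endostatin, was at 532 and 511 in fibroblast-like and 1139 and 1206 in melanoma-like cells. It had 27619 UMIs in melanoma-like cells and was found in 391 of the 435.

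The fibroblast-like clusters differed in their collagens. The larger one (cluster 11, 104 and 134 cells) had 27736 and 24048 collagen CPM, and the smaller one (cluster 21, 39 and 74 cells) 13257 and 14419. Cluster 21 was led by Mt2, Lox, Ndufa4l2 and Adm. Col12a1 went against the total, with 11.3 and 15.1 CPM in cluster 11 and 94.8 and 127 in cluster 21, a log2 difference of 3.07 in each library (intervals 2.31 to 3.88 and 2.57 to 3.60). Col16a1 was higher in cluster 21 by 0.49 and 0.54. Col4a1 differed by -0.07 (interval -0.21 to 0.07) and -0.04 (-0.13 to 0.06), while Col1a2 was lower in cluster 21 by a log2 difference of -1.67 and -1.09, Col14a1 by -0.94 and -1.71, and Col15a1 by -1.22 and -1.23.

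**Figure D2:**
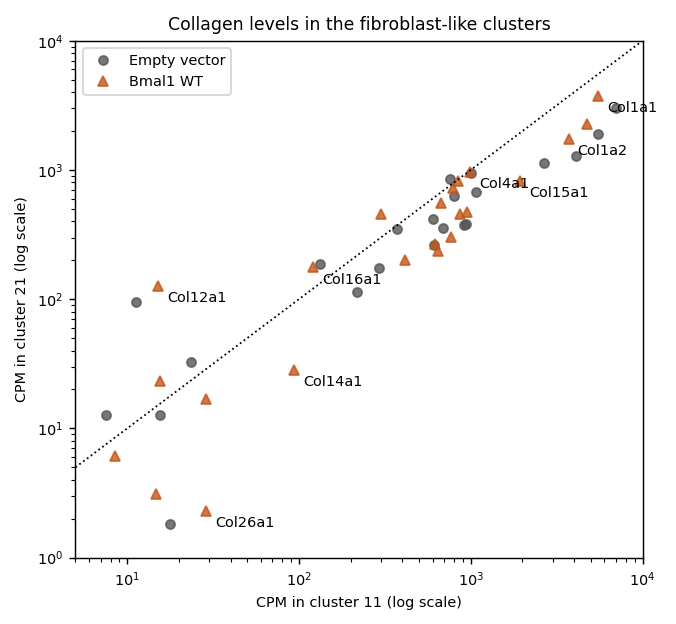
Level of each collagen gene with at least 20 UMIs in the fibroblast-like clusters, cluster 11 on the x axis and cluster 21 on the y axis (CPM, log scales, circles Empty vector, triangles Bmal1 WT, names beside the Bmal1 WT points). Most points lie below the dotted line of equal level, and Col12a1 lies far above it in both libraries.

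In melanoma-like cells Col1a1 was held by few cells. Of 2257 Col1a1 UMIs in 435 cells, 2 cells held 50 percent and 7 cells held 90 percent. A minimum of 50 Col1a1 UMIs, chosen after the values were seen, was reached by 8 cells, which had from 56 to 709 Col1a1 UMIs and together 93.5% of the total, and the next cell had 22. The remaining 427 cells were at 6.59 CPM. In fibroblast-like cells 181 of 351 reached the same minimum. The minimum was not scaled by depth. The 8 cells had a median of 79968.5 UMIs of all genes and the other 427 a median of 35828. In fibroblast-like cells the medians were 13650 in Empty vector and 18272 in Bmal1 WT. The 8 cells had 1633 Col3a1 UMIs and 82 Col1a2 UMIs, and their Col6a1, Col6a2 and Col6a3 levels were 1488, 1101 and 842 CPM against 366, 169 and 131 in the other melanoma-like cells. They had 2 UMIs of the fibroblast proteoglycan Dcn and 4 of Lum, and also only 1 of Sox10 and none of Erbb3, while S100b was found in all 8 and Sox9 in 6. Col11a1, Col2a1 and Col20a1, which had 1694, 550 and 672 UMIs in the other 427 cells, had none in them. Of the 8, 1 was from Empty vector and 7 from Bmal1 WT, 4 carried the h5 hashtag and 4 had no hashtag. By contrast, Col18a1 needed 56 melanoma-like cells to reach 50 percent of its UMIs, Col4a1 54 and Col3a1 21.

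**Figure D3:**
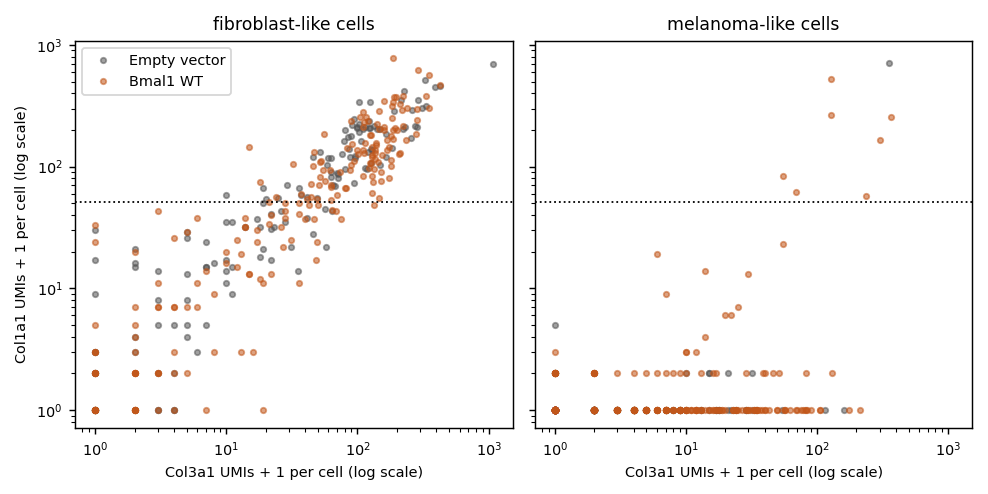
Col1a1 against Col3a1 UMIs (each plus 1, log scales) in single fibroblast-like (left) and melanoma-like cells (right), grey for Empty vector and orange for Bmal1 WT. The dotted line is the minimum of 50 Col1a1 UMIs, which 181 of 351 fibroblast-like and 8 of 435 melanoma-like cells reached.

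Immune-like cells had a low collagen level. At least 1 collagen UMI was found in 15.5% of 3484 Empty vector and 29.6% of 1498 Bmal1 WT immune-like cells, with median depths of 4858 and 6676 UMIs, against 100% and 99.5% of fibroblast-like cells, whose median depths were 13650 and 18272. With each cell thinned to 1000 UMIs, shallower cells left out, the immune-like shares were 3.44% of 3346 and 5.58% of 1415, and the fibroblast-like shares 97.1% and 96.6%. Col1a1 was at 5.56 and 4.21 CPM in T-cell-like, 3.56 and 12.3 in NK-cell-like, 2.62 and 3.69 in macrophage- or monocyte-like and 3.49 and 3.24 in dendritic-cell-like cells. The NK-cell-like value in Bmal1 WT included 1 cell with several hashtags, which held 36 of 175 collagen UMIs and 16 of 34 Col1a1 UMIs, and without it was 6.53. Whether these UMIs came from free RNA, from doublets or from the cells themselves was not tested.

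A few collagens in immune-like cells had more UMIs than the makeup of the source cells gives. Their counts were set against those expected if the collagen UMIs of a class had the makeup of the fibroblast-like and melanoma-like cells of the same library, and they stand here as descriptions. Col8a2, on chromosome 4 (126286793 to 126314330, plus strand), had 25 of its 29 Empty vector UMIs and 15 of its 19 Bmal1 WT UMIs in NK-cell-like cells, at 4.24 (2.75 to 6.26) and 5.42 (3.04 to 8.95) CPM, where 0.0019 and 0.0024 UMIs were expected. They lay in 25 and 14 different cells of both NK-cell-like clusters. Col27a1, a fibrillar collagen of cartilage, had 61 and 49 UMIs in dendritic-cell-like cluster 13, the cluster with raised Ccr7, Fscn1 and Ccl22, in 30 of 125 and 24 of 64 cells. This was 36.9 and 46.5 CPM, beside 44.0 and 33.4 in melanoma-like cells. The transmembrane Col23a1 had 13 and 18 UMIs in dendritic-cell-like cluster 16, which raised Xcr1 and Clec9a. It also had 6 and 5 UMIs in T-cell-like cells, where 0 and 0.012 were expected. Col11a2 had 6 and 5 UMIs in NK-cell-like cells, where 0.0169 and 0.0178 were expected. In T-cell-like cells Col11a2 had 9 and 1, where 0.0279 and 0.0138 were expected. In macrophage- or monocyte-like cells Col14a1 had 14 and 23 UMIs, in 7 of 755 and 11 of 426 cells, where 1.07 and 0.382 were expected, and Col4a1 had 39 and 25, in 35 and 19 cells, where 7.93 and 9.68 were expected.

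**Figure D4:**
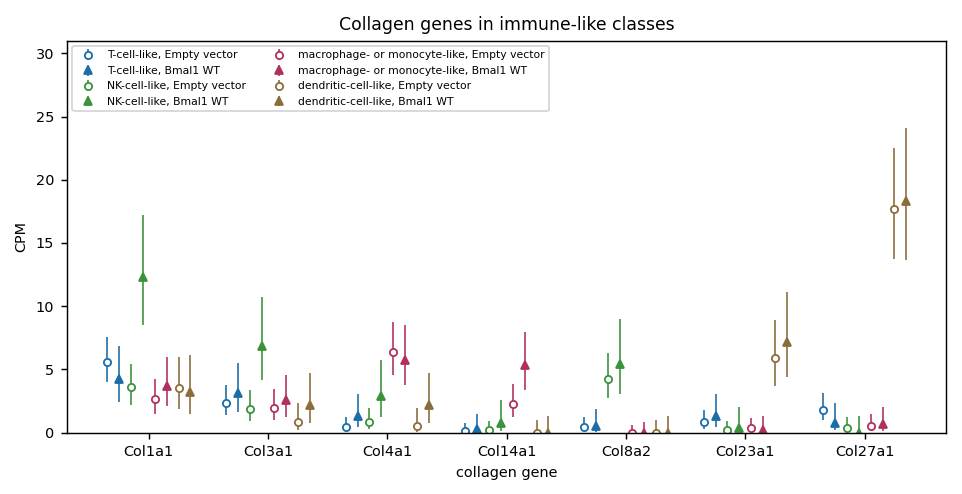
Level in CPM of 7 collagen genes in the 4 large immune-like classes (open circles Empty vector, filled triangles Bmal1 WT, bars exact 95% Poisson intervals). Col8a2 stands above 0 mainly in NK-cell-like cells, Col27a1 and Col23a1 in dendritic-cell-like cells, and Col14a1 and Col4a1 in macrophage- or monocyte-like cells, while Col1a1 and Col3a1 are spread over the classes.

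Empty vector and Bmal1 WT were compared on UMIs summed per hashtag replicate with edgeR's quasi-likelihood test over all genes with at least 20 UMIs. Few of the source cells could be used, since 69.2% of Empty vector and 77.4% of Bmal1 WT fibroblast-like cells, and 41.3% and 53.7% of melanoma-like cells, had no hashtag. The fibroblast-like replicates held 13, 9 and 12 cells (h1, h7, h8) and 19, 9 and 14 cells (h3, h5, h9). The melanoma-like replicates held 35, 3 and 20 cells and 29, 82 and 26 cells. In melanoma-like cells Arntl was at 55.5, 112 and 53.0 CPM in h1, h7 (7 UMIs) and h8 and 50.6, 60.9 and 60.5 in h3, h5 and h9, with overlapping groups and a log2 fold change of -0.06 ± 0.28 (SE, adjusted p 0.9997). A vector transcript without the 3' end of the gene would not be counted, so this is no check of the construct.

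In fibroblast-like cells no collagen gene passed an adjusted p of 0.05. Of the 20 tested, 11 were nominally higher and 9 lower in Bmal1 WT with a median log2 fold change of 0.05, against -0.06 over all 8420 genes tested, of which 0% were called. At an unadjusted p under 0.05, 2 were higher and 1 lower, while 2.36% of all genes were higher and 4.17% lower. Replicate groups did not overlap for 2 higher and 0 lower collagen genes, and for 4.9% higher and 6.97% lower of all genes. DESeq2 and limma also called no collagen gene. The chains of type I and III lay together. Col1a1 was at 5337, 6836 and 5217 CPM in h1, h7 and h8 and 4162, 5955 and 6156 in h3, h5 and h9. Col1a2 was at 3098, 3242 and 2909 against 2391, 3582 and 3550, and Col3a1 at 3755, 4540 and 3400 against 2900, 4613 and 4112. In all 3 genes the h3 value was the lowest and the groups overlapped.

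The collagen gene with the smallest p in fibroblast-like cells was Col12a1. It was at 17.6, 0 and 25.8 CPM in Empty vector (4, 0 and 8 UMIs) and 108, 90.8 and 38.5 in Bmal1 WT (42, 23 and 13 UMIs). The groups did not overlap, with a log2 fold change of 2.32 ± 0.66 (SE) and an adjusted p of 0.67. The cells behind these values were not the same mixture. Cluster 21, where Col12a1 was high, made up 30.8%, 11.1% and 8.33% of the Empty vector and 78.9%, 33.3% and 35.7% of the Bmal1 WT cells. These were 4, 1 and 1 cells and 15, 3 and 5 cells. The part of this mixture in the Col12a1 values was not tested. In cluster 11 alone, an analysis added after the data were seen, 2 of 19 collagen genes had an unadjusted p under 0.05, where 6.82% of 7417 genes did and none passed an adjusted p of 0.05. Col12a1 had 0 UMIs in 5 replicates and 2 in h9. Counting all its cells, cluster 21 was at 94.8 in Empty vector and 127 in Bmal1 WT, a log2 difference of 0.42 (interval -0.03 to 0.90). The whole class, most of its cells without a hashtag, was at 30.3 and 51.4, a log2 difference of 0.76.

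Col14a1 was at 304, 55.4 and 194 CPM in h1, h7 and h8 against 38.6, 35.5 and 101 in h3, h5 and h9, a log2 fold change of -1.65 ± 0.57 (SE) with an adjusted p of 0.718. The h7 and h9 values made the groups overlap. In cluster 11 alone its log2 fold change was -1.83 ± 0.70 (SE) with an adjusted p of 0.696, and over all cells of the class, most without a hashtag, its level was 194 in Empty vector and 72.3 in Bmal1 WT. Col4a1 was at 798, 818 and 665 against 866, 1256 and 1198 without overlap, a log2 fold change of 0.54 ± 0.23 (SE) with an adjusted p of 0.762, but over all cells of the class it was at 987 and 984. Col5a2 was at 780, 587 and 475 against 774, 995 and 879, and Col8a1 at 873, 411 and 610 against 504, 1161 and 1044, with log2 fold changes of 0.52 ± 0.25 and 0.51 ± 0.36 (SE) and adjusted p of 0.785 and 0.875. Over all cells of the class Col8a1 was lower in Bmal1 WT, at 980 and 793. Of the others, Col6a1 and Col6a2 were highest in h7 of Empty vector, at 1423 and 1067 beside 480 and 379 in h1 and 491 and 358 in h8. Col5a1, Col6a3, Col4a2, Col15a1, Col16a1 and Col18a1 had overlapping groups, with adjusted p from 0.905 to 0.998 over these 8 genes.

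**Figure D5:**
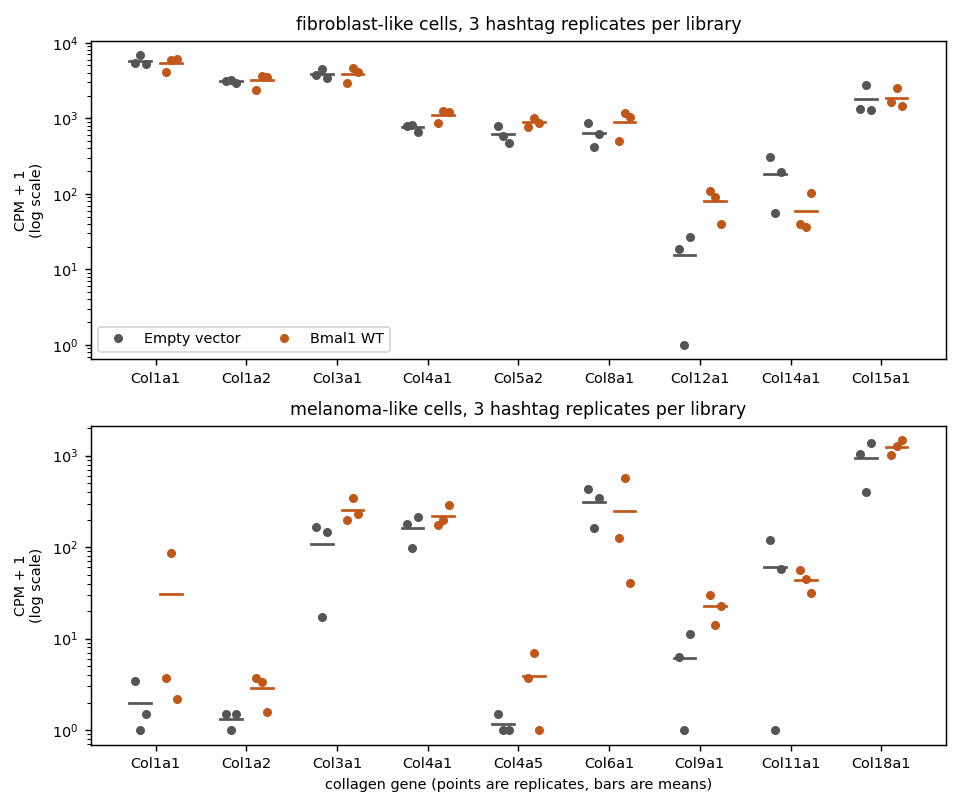
CPM plus 1 (log scale) of named collagen genes in each hashtag replicate (points) with the mean of 3 replicates (bars), in fibroblast-like (top) and melanoma-like cells (bottom), grey for Empty vector and orange for Bmal1 WT. In fibroblast-like cells Col12a1 is the gene most apart between the libraries. In melanoma-like cells Col1a1 is high in 1 replicate, h5, at 86.2.

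In melanoma-like cells no collagen gene passed either. Of 28 tested, 15 were nominally higher and 13 lower in Bmal1 WT, with a median log2 fold change of 0.10 against -0.01 over all 11387 genes, of which 0% were called. At an unadjusted p under 0.05, 4 were higher and 0 lower, while 1.75% of all genes were higher and 2.36% lower, and DESeq2 and limma called none of the collagen genes. Replicate groups did not overlap for 4 higher and 0 lower collagen genes, and for 4.59% higher and 4.6% lower of all genes. Replicate h7 held only 3 melanoma-like cells and 62369 UMIs, and it was the lowest Empty vector replicate for Col1a1, Col3a1, Col9a1 and Col18a1 among others. The 12 melanoma markers summed to 2017, 1427 and 1447 CPM in h1, h7 and h8 against 897, 1150 and 842 in h3, h5 and h9, without overlap, and the part of this difference in the collagen values was not tested.

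Col9a1 had the smallest p, at 5.31, 0 and 10.1 CPM (h1, h7 and h8) against 29.3, 13.3 and 22.0 (h3, h5 and h9) without overlap, a log2 fold change of 1.502 ± 0.50 (SE) with an adjusted p of 0.9997. Col3a1 was at 163, 16.0 and 144 against 198, 341 and 232, also without overlap, with a log2 fold change of 0.97 ± 0.39 (SE) and an adjusted p of 0.9997. Counting also the cells that had no hashtag, Col9a1 was at 11.2 and 11.9 and Col3a1 at 206 and 290. In the cells without a hashtag alone both were lower in Bmal1 WT, the opposite of the tagged cells. Col9a1 was at 23.2 and 6.31 there and Col3a1 at 384 and 271. For Col3a1, 1 Empty vector cell held 352 of the 563 UMIs behind the 384. Over all melanoma-like cells except those with 50 or more Col1a1 UMIs, Col3a1 was at 147 and 228. Col1a1 was at 2.41, 0 and 0.505 against 2.66, 86.2 and 1.19, and h5 held 468 of the 480 UMIs behind its log2 fold change of 4.43 ± 1.61 (SE, adjusted p 0.9997). Without the 4 cells of h5 that had 50 or more Col1a1 UMIs, h5 was at 2.66. Over all melanoma-like cells Col1a1 went the other way, at 124 in Empty vector, where 1 cell without a hashtag held 709 of 721 UMIs, and 88.2 in Bmal1 WT. Col1a2 was at 0.482, 0 and 0.505 against 2.66, 2.39 and 0.593, and Col4a5 at 0.482, 0 and 0 against 2.66, 5.89 and 0, with log2 fold changes of 1.89 ± 0.98 and 3.43 ± 1.46 (SE) and adjusted p of 0.9997. Over all melanoma-like cells Col1a2 was lower in Bmal1 WT, at 6.88 and 4.25, and Col4a5 higher, at 1.20 and 7.12. The Empty vector cell with 709 Col1a1 UMIs also held 36 of the 40 Empty vector Col1a2 UMIs. Without the cells that had 50 or more Col1a1 UMIs, Col1a1 was at 2.09 and 8.16 and Col1a2 at 0.695 and 1.69.

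Col18a1 and Col11a1, which were highest in the melanoma-like class, had overlapping groups. Col18a1 was at 1034, 401 and 1388 CPM against 1025, 1264 and 1472, and Col11a1 at 120, 0 and 57.0 against 54.6, 43.8 and 30.9. The type VI chains varied widely between replicates of both groups, with Col6a1 at 429, 160 and 342 against 125, 573 and 39.2, and Col6a2 at 201, 96.2 and 146 against 34.0, 299 and 4.75. Their adjusted p values were 0.9997, as for Col4a1, Col4a2, Col5a1, Col5a2, Col6a3, Col12a1, Col15a1 and Col16a1. Col14a1 was under the minimum of 20 UMIs.

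The effect in melanoma-like cells was also compared with that in fibroblast-like cells in a single model over both classes, with a term for each replicate, added after the data were seen. None of the 18 collagen genes testable in both passed an adjusted p of 0.05, and 3 had an unadjusted p under 0.05, where 5.31% of all 8020 genes did. Col5a1 differed by -1.14 ± 0.41 (log2, SE, adjusted p 0.904), Col12a1 by -2.36 ± 0.94 (adjusted p 0.922) and Col1a2 by 1.71 ± 0.77 (adjusted p 0.927).

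In immune-like cells 4.72% of 12838 genes passed an adjusted p of 0.05, but none of the 21 collagen genes tested. Of them 19 were nominally higher in Bmal1 WT, with a median log2 fold change of 0.62 against -0.09 over all genes. At an unadjusted p under 0.05, 4 were higher and 0 lower, while 9.26% of all genes were higher and 16.2% lower. Replicate groups did not overlap for 4 higher and 0 lower collagen genes, and for 11% higher and 20.8% lower of all genes. DESeq2 and limma called no collagen gene here. Col8a1 was at 0.331, 0.228 and 0.404 CPM against 1.01, 1.36 and 1.23 without overlap, with a log2 fold change of 1.75 ± 0.53 (SE) and an adjusted p of 0.0917. Its counts were small, with 8 UMIs over all Empty vector and 17 over all Bmal1 WT immune-like cells, hashtag or not. Col5a1, Col4a2, Col18a1 and Col5a2 followed, with log2 fold changes of 1.64, 1.19, 0.96 and 0.87 and adjusted p of 0.119, 0.177, 0.18 and 0.253. The summed collagen level of immune-like cells was 32.3, 26.2 and 31.5 CPM in h1, h7 and h8 against 45.4, 53.1 and 36.9 in h3, h5 and h9, so that all Bmal1 WT replicates were higher. In the same replicates, fibroblast-like and melanoma-like cells together held 19.4%, 5.12% and 22.3% of the UMIs against 19.3%, 57.9% and 43.5%. The part of these shares in the immune-like level was not tested. Counting all cells, hashtag or not, T-cell-like cells were at 34.3 and 35.8 collagen CPM in Empty vector and Bmal1 WT. NK-cell-like cells were at 25.5 and 63.3, the latter 50.4 without the 1 cell with several hashtags. Macrophage- or monocyte-like cells were at 29.8 and 44.8 and dendritic-cell-like cells at 41.3 and 56.1. Col8a2 and Col27a1 were at 0.442, 1.37 and 1.61 and at 3.87, 4.79 and 2.96 in Empty vector, and at 1.15, 1.36 and 1.23 and at 5.33, 5.44 and 1.23 in Bmal1 WT, with overlapping groups and adjusted p of 0.884 and 0.832.

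With all cells of a replicate summed, 29 of 33 collagen genes tested were nominally higher in Bmal1 WT, with a median log2 fold change of 0.93 against -0.01 over all 14522 genes, of which 0% passed an adjusted p of 0.05. At an unadjusted p under 0.05, 10 were higher and 0 lower, against 9.03% and 13% of all genes. DESeq2 called 5 of the collagen genes and limma none. Col5a3 had the smallest p, at 16.7, 22.8 and 26.2 CPM against 32.9, 67.4 and 54.1, a log2 fold change of 1.24 ± 0.30 (SE) with an adjusted p of 0.168. Col9a1, Col4a1, Col7a1 and Col4a2 had log2 fold changes of 2.69, 1.43, 1.81 and 1.31 and adjusted p from 0.171 to 0.187. In such sums more source cells and more RNA per source cell cannot be told apart. The shares of source cells given above differed between replicates, and their part in these sums was not tested.

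The wider collagen pathway was read in the same fits from 48 genes, 29 for making and crosslinking collagen, 10 receptors and 9 for breakdown. In fibroblast-like cells 35 were tested and 0 passed an adjusted p of 0.05, with 5 higher and 1 lower at an unadjusted p under 0.05, beside 2.36% and 4.17% of all genes. P4ha2, a subunit of the prolyl hydroxylase that lets the helix form, was at 106, 18.5 and 103 CPM against 391, 209 and 163, a log2 fold change of 1.72 ± 0.51 (SE) with an adjusted p of 0.67. Plod2, a lysyl hydroxylase for crosslinks, was at 181, 217 and 216 against 386, 415 and 231 (log2 fold change 0.74 ± 0.29 SE, adjusted p 0.721). Lox, which crosslinks collagen outside the cell and led cluster 21, was at 251, 268 and 87.2 against 1437, 272 and 231, so that h3, the replicate with 15 of its 19 cells in cluster 21, stood apart. In cluster 11 alone P4ha2 had a log2 fold change of 1.20 ± 0.47 (SE, adjusted p 0.696) and Lox -0.04 ± 0.76 (SE, adjusted p 0.995). The gelatinase Mmp9 had a log2 fold change of -3.01 ± 0.98 (SE) with an adjusted p of 0.714, with h7 at 1339 and the other 5 replicates between 14.8 and 116. P4ha1, P4hb, Serpinh1, the collagen chaperone, Bmp1, which trims procollagen, the collagen receptor Ddr2 and the protease Mmp14 had adjusted p from 0.817 to 0.9999.

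In melanoma-like cells 34 pathway genes were tested and 0 passed. P3h3 and Crtap, which act in the hydroxylation of collagen chains, had groups that did not overlap, P3h3 at 28.5, 16.0 and 14.6 CPM against 14.0, 10.1 and 7.71, and Crtap at 59.3, 48.1 and 61.1 against 39.3, 43.4 and 38.0, with log2 fold changes of -1.004 and -0.55 and adjusted p of 0.9997. Over all genes tested in melanoma-like cells, 4.6% were lower in Bmal1 WT without overlap. Plod1 was at 67.0, 64.1 and 71.2 against 137, 68.3 and 135 (log2 fold change 0.72, adjusted p 0.9997). Lox had 0 to 2 UMIs per replicate, although P4ha1, Plod2 and Serpinh1 were at 347 to 930 in every replicate. In immune-like cells 2 of 34 passed narrowly, beside 4.72% of all genes. Mia3, which helps load procollagen into carriers, was lower by a log2 fold change of -0.39 ± 0.09 (SE), and Ppib, a peptidyl-prolyl isomerase of the endoplasmic reticulum, was higher by 0.44 ± 0.10 (SE), each with an adjusted p of 0.047, and neither passed when any 1 replicate was left out. The collagen-binding integrin gene Itga1 had a log2 fold change of -0.60 ± 0.14 (SE, adjusted p 0.0502). When all cells were summed, Plod1, Ddr2 and Timp3 had the smallest p, with log2 fold changes of 1.19, 1.32 and 1.32 and an adjusted p of 0.168 each.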

How the data were processed

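The authors deposited gene-by-cell tables of UMI counts with hashtag counts for Empty vector and Bmal1 WT, made with Cell Ranger 6.1.2 per the file headers and mm10 per the submitters' processing notes. The tables for the bHLH sample are identical to those of Bmal1 WT in all 3 parts and were not used. Counting options are not given in the sources used here. Cells with at least 200 genes and at most 20% mitochondrial UMIs were kept. Cells were given to a hashtag by a mixture of 2 normal distributions fitted to its log counts. Scrublet called 2 and 3 doublets, which is too few to have worked, so none were removed in the main analysis. Cells were clustered (scanpy 1.11.5, igraph 0.11.9, 2000 variable genes without collagen genes, 30 components, 15 neighbours, Leiden resolution 1) and named where at least 3 markers of a type were raised 2 times. UMI counts per class and replicate, scaled by total UMIs, were tested with edgeR 4.0.16 (quasi-likelihood test, two-sided, Benjamini-Hochberg adjustment over all genes with at least 20 UMIs). The fit was checked on simulated data with 200 changed genes, drawn with the dispersion trend of the data. At an adjusted p of 0.05, it recovered 61 of 91 4-fold changes in fibroblast-like and 76 of 98 in melanoma-like cells. It recovered 98 of 100 in immune-like cells and 81 of 97 over all cells. Of 8-fold changes it recovered 78 of 83 in fibroblast-like and 86 of 91 in melanoma-like cells. A 4-fold change in a source class could thus be missed. Alternatives were DESeq2 1.42.0, limma 3.58.1 on log2 of the mean per cell plus 1, other factors, filters, clusterings and hashtag rules. Genes named for the comparison were 15 collagen and 8 pathway genes set by name and the 5 collagen and 3 pathway genes with the smallest p of each fit. Members, lists and tests were chosen with earlier results of these data known. Replicate totals in melanoma-like cells ran from 62369 to 5431901 UMIs. Sequences and positions came from RefSeq (GRCm38.p6) and GENCODE M21.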

Additional observations from a re-analysis of the deposited data

Results flagged for a closer look

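Collagen UMIs were also found in unnamed clusters, which no comparison within a cell class used and which entered only the sums over all cells. Cluster 18 (83 Empty vector and 239 Bmal1 WT cells), which was given no name and whose cells had few mitochondrial UMIs, had 1916 and 907 collagen CPM, and cluster 20 (36 and 66 cells), also unnamed, had 502 and 929. Immune-like cells were at 32.0 and 48.98 CPM. Fibrillar chains gave 24.1% and 30.02% of the collagen UMIs in cluster 18, and Col18a1 was at 399 and 296 CPM in it. In cluster 18, 62 Empty vector and 209 Bmal1 WT cells had no hashtag. Groups of 3 replicates are too small for a check of outlying samples.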

How the results depend on the processing

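No collagen gene passed in 68 of 71 other fits, those without 1 replicate included (0 in each). The exceptions were the fit with no filter on genes, with 2 genes in fibroblast-like cells (Col12a1 and Col14a1) and 1 in melanoma-like cells (Col1a1), and DESeq2 over all cells, with 5. Of 32 named fold changes under 554 alternative values, 12 reversed, none of these by leaving out a replicate, and 39 more kept their direction but changed side of the threshold. With each cell given to its highest hashtag, which adds cells without a clear tag, Col4a1 (-0.0125), Col8a1 (-0.40) and Plod2 (-0.0468) reversed in fibroblast-like cells, and Col1a1 (-2.42), Col3a1 (-0.71) and Col1a2 (-2.36) in melanoma-like cells. With each cell weighing the same in limma, Col8a1 was at -0.18 in fibroblast-like and Col1a2 at -0.064 in melanoma-like cells. Over all cells of a class, hashtag or not, Col4a1 was at -0.0043 and Col8a1 at -0.30 in fibroblast-like cells, and Col1a1 at -0.49 and Col1a2 at -0.70 in melanoma-like cells. The cause of these reversals was not tested. Without 1 replicate the adjusted p ran from 0.0779 to 0.127 for Mia3 and from 0.0675 to 0.131 for Ppib, and that of Mia3 was also above 0.05 under DESeq2 (0.17), TMM factors (0.0758) and limma (0.212). The share of collagen UMIs from fibroblast-like cells was 72.1% in Empty vector and 54.8% in Bmal1 WT with no filter on cells, 72.8% and 57.3% with at least 500 genes and at most 10% mitochondrial UMIs, and 75.2% and 65.0% without the highest 5% of Scrublet scores. With 1000 UMIs per cell, the shares of cells with a collagen UMI were 97.1% and 96.6% in fibroblast-like, 83.7% and 85.9% in melanoma-like and 3.44% and 5.58% in immune-like cells. No paired analysis was possible because the groups share no replicate number. The replicates held 3 to 82 melanoma-like and 9 to 19 fibroblast-like cells.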
